A study of Mus musculus with 12 samples.

Results

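The hypoxia-inducible factor (HIF) pathway was followed through 10 genes in mouse brain and skull libraries after photothrombosis (PT), an injury in which a laser lights the dye Rose Bengal in the blood and closes small vessels. The genes were chosen by name: the HIF subunit genes Hif1a, Epas1, Hif3a and Arnt, the prolyl hydroxylase genes Egln1, Egln2 and Egln3, and the target genes Bnip3, Adm and Car9. All 10 were found among the 22317 genes of the deposited count table. No measured value entered this choice, although it was made with earlier results of these data known.

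HIF is a transcription factor of an alpha subunit, encoded by Hif1a, Epas1 (HIF-2 alpha) or Hif3a, and a shared partner encoded by Arnt (HIF-1 beta). In oxygenated cells the Egln enzymes hydroxylate the alpha subunits, which the von Hippel-Lindau complex then marks for breakdown. When oxygen is short the alpha proteins persist, pair with ARNT and switch on genes for glycolysis, vessel growth, pH balance and mitochondrial turnover. Oxygen therefore acts mainly on the stability of the alpha proteins, which RNA counts do not measure, whereas target genes and Egln3 are regulated at the RNA level. In bone HIF is known for coupling vessel growth to bone formation and for red cell production in the marrow, and in the brain for the response to ischemia.

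The libraries came from wild-type male BALB/c mice, 8 weeks old, in 4 groups of 3 biological replicates. SB2 and SB4 are labelled as brain cortex on day 2 and day 4 after PT of the skull, and BS2 and BS6 as interparietal bone, a bone of the skull, on day 2 and day 6 after PT of the brain. All 4 groups carry an injury, by the labels none is the tissue that was lit, uninjured tissue was not analysed here, and no comparison with a control was made. Levels are given as CPM, a gene's count scaled to the size of its library with edgeR's TMM factors. The total count ran from 14126082 to 18972654 per library, so that a gene with no count may still have had up to 3 counts, or 0.163 to 0.218 CPM, by counting error alone.

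The transcripts of 2 groups went against their labels. The summed level of 10 neuron markers was 98.03 to 133 CPM in SB2 and 127 to 186 CPM in BS6, against 9304 to 9815 CPM in SB4 and 8943 to 9138 CPM in BS2. The summed level of 8 osteoblast and osteocyte markers was 36850 to 41970 CPM in SB2 and 19220 to 79450 CPM in BS6, against 23.2 to 26.1 CPM in SB4 and 24.2 to 34.6 CPM in BS2, where the osteoclast genes Ocstamp and Atp6v0d2 had no count. SB2, labelled brain, thus held bone transcripts like BS6, and BS2, labelled bone, held brain transcripts like SB4. Group names below stand for the labels, SB2 and BS6 are called the bone-transcript groups, and SB4 and BS2 the brain-transcript groups. SB4 against BS6 is the comparison that uses no group at odds with its label. Replicate 2 of BS6 stood apart from the other BS6 libraries, with 24340 CPM of neutrophil lineage markers against 1408 CPM in replicate 1 and 3313 CPM in replicate 3, and with the lowest osteoblast and osteocyte sum, 19220 CPM. Values without it are given beside the results it changed most.

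**Figure D1:**
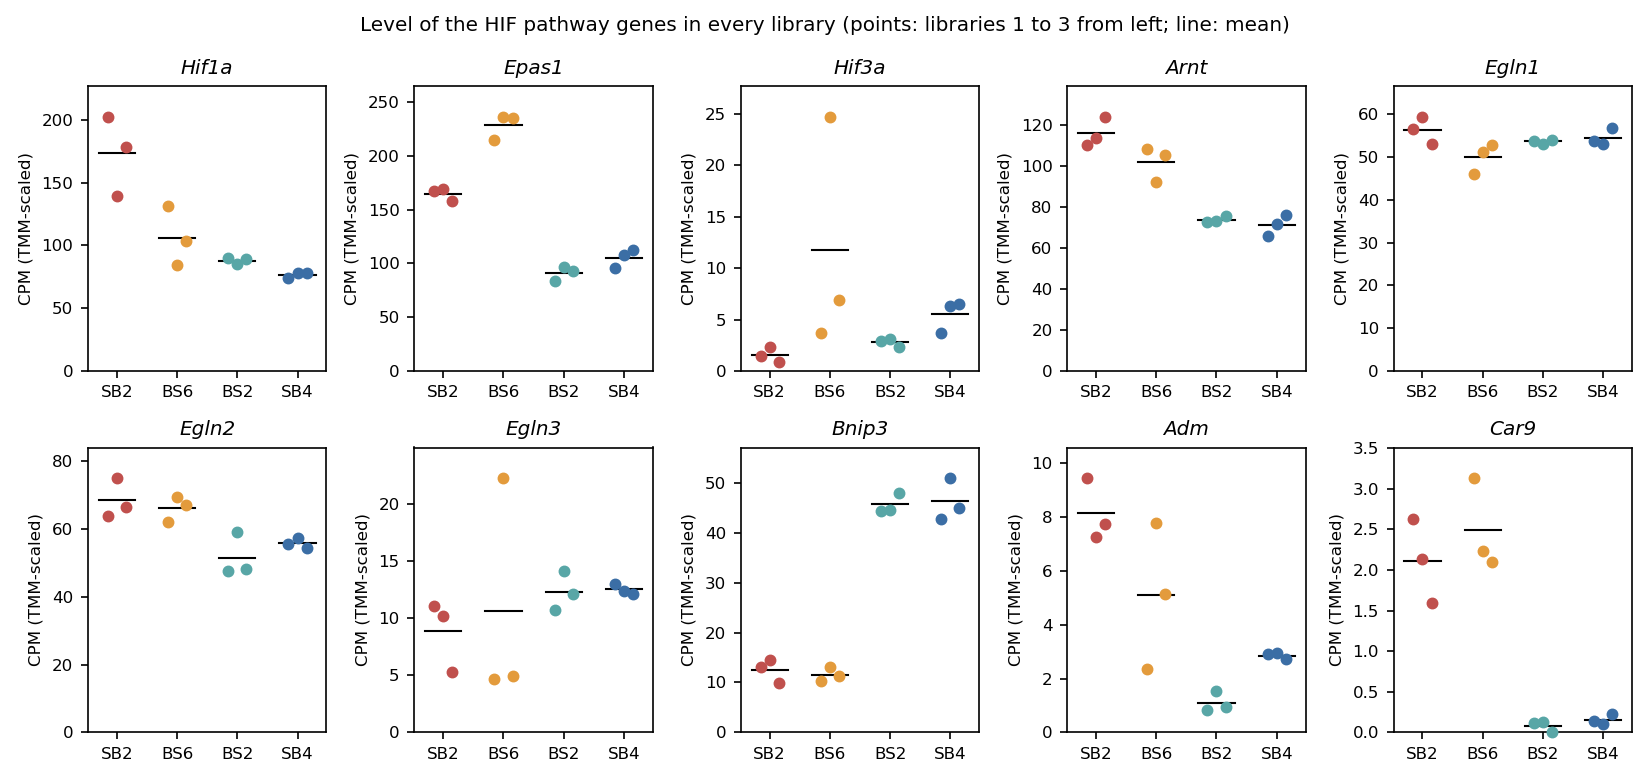
Level of each of the 10 genes (y axis, CPM, linear and starting at 0) in the 12 libraries, by group on the x axis (bone-transcript groups SB2 and BS6, then brain-transcript groups BS2 and SB4). Points are libraries 1 to 3 from left to right and lines are group means; Bnip3 was at 9.89 to 14.5 CPM in SB2 and BS6 and at 42.8 to 50.9 CPM in BS2 and SB4, whereas Car9 did not exceed 0.223 CPM in the latter groups.

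Among the alpha subunit genes Hif1a, the general oxygen-regulated subunit, was highest in SB2. Hif1a lies at chr12:73901375-73947530 on the plus strand (mm10, GENCODE M21) and reached 203, 140 and 179 CPM in the 3 SB2 libraries. In BS6 it was at 131, 84.0 and 103 CPM, in BS2 at 89.8, 85.0 and 88.8 CPM, and in SB4 at 74.1, 78.1 and 78.0 CPM. Every SB2 library lay above every library of the other groups and every SB4 library below all others, while BS6 overlapped BS2. Hif1a was lower in SB4 than in SB2 by a log2 fold change of -1.17 ± 0.124 (SE; adjusted p = 1.88e-05 over all genes tested, edgeR quasi-likelihood). It was thereby called, a term used here where the adjusted p lay below 0.05 and the fold threshold was met, meaning that the log2 fold change exceeded 1 in size. In the order SB2, BS6, BS2, SB4 no neighbouring pair passed the test, with adjusted p of 0.0933, 0.13 and 0.0991. BS6 against BS2 gave 0.31 ± 0.165 (edgeR adjusted p = 0.13), and 0.45 (adjusted p = 0.0033) without BS6 replicate 2. In these bulk libraries, fewer cells of a type and less RNA per cell cannot be told apart. The antisense gene Gm15283 shares 330 exonic bases with Hif1a, but had a mean of 0.252 to 1.06 CPM in the 4 groups. The protein-coding gene Gm49321 shares 148 exonic bases with Hif1a on the same strand and is absent from the count table.

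Epas1, known from endothelium and from the control of red cell production, was highest in BS6. Epas1 (chr17:86753700-86833410, plus strand) was at 215, 237 and 235 CPM in BS6 and at 167, 169 and 158 CPM in SB2. In SB4 it was at 95.9, 108 and 112 CPM and in BS2 at 83.5, 96.4 and 92.7 CPM. The bone-transcript groups did not overlap the brain-transcript groups, nor each other, whereas SB4 and BS2 overlapped. Epas1 rose in BS6 against BS2 by 1.37 ± 0.102 on the log2 scale (edgeR adjusted p = 4.45e-05). In SB4 against SB2 it was lower by 0.64 on that scale (log2 fold change -0.64 ± 0.0709, adjusted p = 5.73e-06), under the fold threshold. BS6 against SB2 gave 0.49 ± 0.099 (edgeR adjusted p = 0.0455), a p that passed 0.05 without BS6 replicate 2 (0.00878) but not when any other library was left out (0.0709 to 0.2). SB4 against BS2, the next pair in the order, did not pass (0.20 higher in SB4; adjusted p = 0.191). Summed endothelium markers were 1144 to 1440 CPM in BS6 and 1243 to 1339 CPM in SB2, against 199.6 to 246.3 CPM in SB4 and 151.9 to 233.2 CPM in BS2. Summed erythroid markers were 7746 to 12750 CPM in BS6 against 1296 to 4609 CPM in SB2, and macrophage markers 1709 to 2797 CPM against 1219 to 1368 CPM, both without overlap. The part of these cell types in the Epas1 level was not tested.

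Hif3a, whose product lacks part of the activating region of its relatives and can restrain HIF, was the least abundant of the alpha subunit genes. Hif3a (chr7:17031507-17062427, minus strand) was at 1.48, 2.33 and 0.855 CPM in SB2 and at 3.72, 24.8 and 6.94 CPM in BS6. In BS2 it was at 2.95, 3.14 and 2.32 CPM and in SB4 at 3.69, 6.31 and 6.52 CPM. Replicate 2 of BS6, with 410 counts, held more Hif3a than any other library, and its neutrophil lineage sum was also the highest of the 12. SB4, however, held more Hif3a than SB2, with neutrophil lineage sums of 2.23 to 4.62 CPM against 847.8 to 1516 CPM. Whether those cells account for the Hif3a level was not tested. Hif3a rose in SB4 against SB2 by 1.84 ± 0.345 on the log2 scale (edgeR adjusted p = 0.000498). BS6 against BS2 gave 2.11 ± 0.716 (adjusted p = 0.0333), a call that was lost without BS2 replicate 1, 2 or 3 (adjusted p = 0.0882, 0.0851 and 0.101) and fell below the fold threshold without BS6 replicate 2 (0.96, adjusted p = 0.0161). BS6 against SB2 gave 2.95 ± 0.803 without passing (edgeR adjusted p = 0.0798), and 1.79 with adjusted p = 0.0268 without BS6 replicate 2. BS2 against SB4 gave -0.96 ± 0.225 (adjusted p = 0.0419), under the fold threshold, and -1.16 (adjusted p = 0.00975) without SB4 replicate 1. That p was above 0.05 without any other library of this pair (0.0741 to 0.219).

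Arnt, the partner of all alpha subunits, followed the tissue transcripts with small steps. Arnt (chr3:95434388-95497240, plus strand) was at 110, 114 and 124 CPM in SB2, 108, 92.3 and 106 CPM in BS6, 72.8, 73.1 and 75.8 CPM in BS2 and 66.1, 72.0 and 76.4 CPM in SB4. All 6 bone-transcript libraries lay above all 6 brain-transcript libraries. The log2 fold change was -0.70 ± 0.0746 in SB4 against SB2 (edgeR adjusted p = 4.48e-06) and 0.50 ± 0.0934 in BS6 against BS2 (adjusted p = 0.00263), both under the fold threshold. SB2 against BS6 and BS2 against SB4 did not pass (adjusted p = 0.307 and 0.754).

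Levels of different genes were compared per kb of exon sequence, as shares of the summed CPM per kb of the alpha subunit genes. Hif1a held 53.3%, 43.7% and 51.6% of this sum in SB2 but 36.3%, 23.6% and 28.9% in BS6, so the bone-transcript groups did not overlap. In the brain-transcript groups it held 49.8%, 44.9% and 47.1% in BS2 and 41.5%, 39.6% and 38.6% in SB4, again without overlap. Epas1 took most of the remainder, 67.5% ± 4.07 (SD, n = 3) in BS6, 57.6% ± 0.923 in SB4, 51.4% ± 2.47 in BS2 and 50.1% ± 4.94 in SB2. The share of Hif3a was 0.217% to 0.641% in SB2, 1.08% to 1.46% in BS2, 1.82% to 2.84% in SB4 and 0.905% to 6.13% in BS6. The later libraries thus held the lower Hif1a share within each kind of tissue transcripts, by 19.9 percentage points between BS6 and SB2 and by 7.33 points between SB4 and BS2. A two-sided exact permutation test of each of these differences gave p = 0.1, the smallest that 3 against 3 libraries allow, and 0.164 after adjustment over the 36 share comparisons computed, so neither difference passed. By the labels, day and injured site change together within each pair and cannot be told apart. Whether the labels of SB2 and BS2 were exchanged was not tested, and if they were, each of these pairs would share an injured site.

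**Figure D2:**
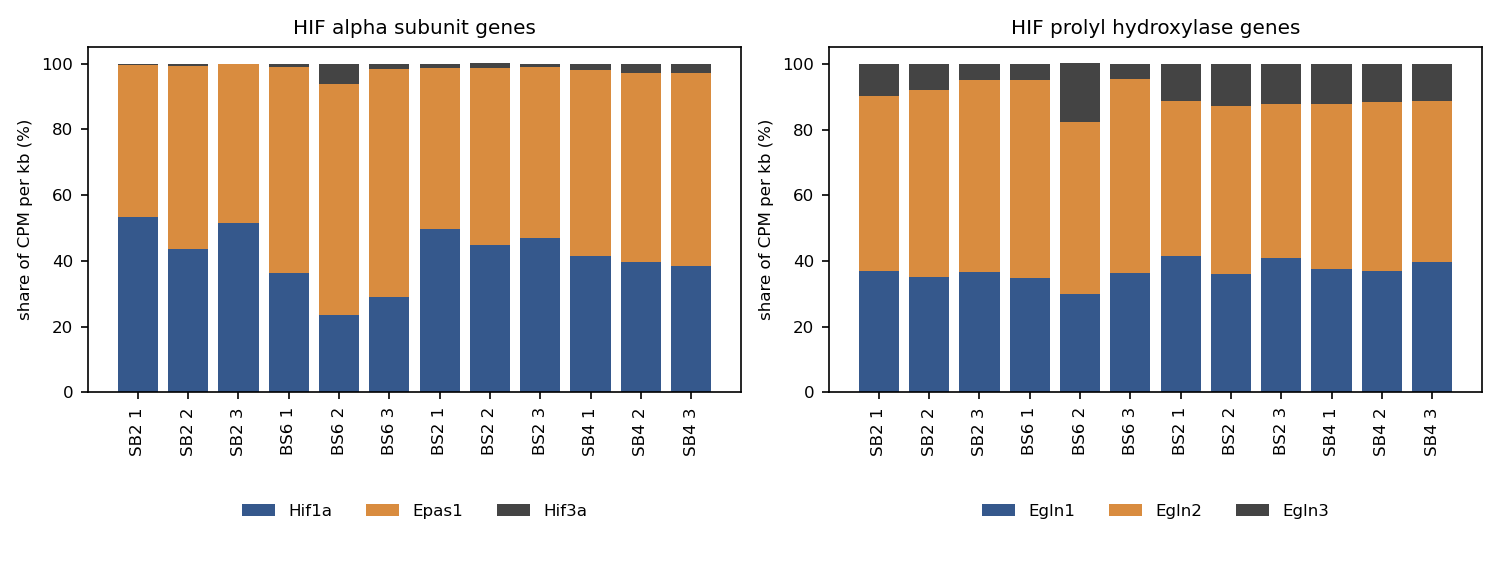
Share of each gene (y axis, percent of the summed CPM per kb, from 0 to 100) in the 12 libraries on the x axis, for the alpha subunit genes (left) and the prolyl hydroxylase genes (right). The Hif1a part is 23.6% to 36.3% in BS6 against 43.7% to 53.3% in SB2, and Egln3 reaches 17.7% in BS6 replicate 2 against 4.55% to 12.9% in the other libraries.

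Of the prolyl hydroxylase genes, Egln1, which encodes PHD2, the main oxygen sensor of the pathway, had nearly one level in all libraries. Egln1 (chr8:124908587-124949324, minus strand) ranged from 46.1 to 59.5 CPM over the 12 libraries, with group means of 56.3 ± 3.28 CPM in SB2, 54.5 ± 2.02 CPM in SB4, 53.6 ± 0.543 CPM in BS2 and 50.1 ± 3.53 CPM in BS6 (SD, n = 3). Every BS6 library lay below every library of the other groups, if narrowly, with 52.885 CPM in BS6 replicate 3 against 52.932 CPM in SB2 replicate 3. The 6 comparisons of groups gave edgeR adjusted p of 0.345 to 0.982, and the fitted log2 fold change was -0.04 in SB4 against SB2 (95% interval -0.205 to 0.121) and -0.06 in BS6 against BS2 (-0.287 to 0.163). With upper-quartile scaling, which moved the median of all genes by -0.13 in SB4 against SB2, Egln1 was at -0.17 there (adjusted p = 0.0451).

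Egln2, which encodes PHD1, was higher in the bone-transcript groups by less than the fold threshold. Egln2 (chr7:27158658-27166802, minus strand) was at 63.7, 74.9 and 66.4 CPM in SB2 and 62.1, 69.2 and 66.9 CPM in BS6, against 55.6, 57.2 and 54.3 CPM in SB4 and 47.6, 58.9 and 48.0 CPM in BS2. All 6 bone-transcript libraries were above all 6 brain-transcript libraries. The log2 fold change was -0.29 ± 0.0765 in SB4 against SB2 (edgeR adjusted p = 0.00438) and 0.40 ± 0.118 in BS6 against BS2 (adjusted p = 0.0197), where the p exceeded 0.05 without BS2 replicate 1 (0.0966) or BS2 replicate 3 (0.0862). SB2 against BS6 gave 0.03 and SB4 against BS2 gave 0.10, neither of which passed.

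Egln3, which encodes PHD3 and is itself induced by HIF, spread most among the hydroxylase genes. Egln3 (chr12:54178981-54203860, minus strand) was at 11.1, 10.2 and 5.25 CPM in SB2 and at 4.63, 22.2 and 4.90 CPM in BS6. In BS2 it was at 10.7, 14.1 and 12.1 CPM and in SB4 at 13.0, 12.4 and 12.1 CPM. The brain-transcript libraries lay close together, whereas both bone-transcript groups held libraries near 5 CPM beside libraries at or above 10.2 CPM. With all libraries the edgeR adjusted p was 0.0756 in SB4 against SB2 and 0.823 in BS6 against BS2. Without BS6 replicate 2, Egln3 was lower in BS6 than in BS2 by a log2 fold change of -1.32 (edgeR adjusted p = 0.000143) and lower than in SB4 by -1.35 (adjusted p = 7.23e-05). Without SB2 replicate 1 the change in SB4 against SB2 was 0.70 with adjusted p = 0.0293, and that in BS2 against SB2 was 0.68 with adjusted p = 0.0388. In SB2, the library with the lowest Egln3, replicate 3, also held the lowest skeletal muscle marker sum, 316.3 CPM against 2038 CPM in replicate 1 and 2574 CPM in replicate 2. In BS6 the order differed, with the highest muscle sum in replicate 3 (611.9 CPM, against 83.2 CPM in replicate 1 and 119.6 CPM in replicate 2) beside 4.90 CPM of Egln3, and the part of muscle in the Egln3 level was not tested.

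**Figure D3:**
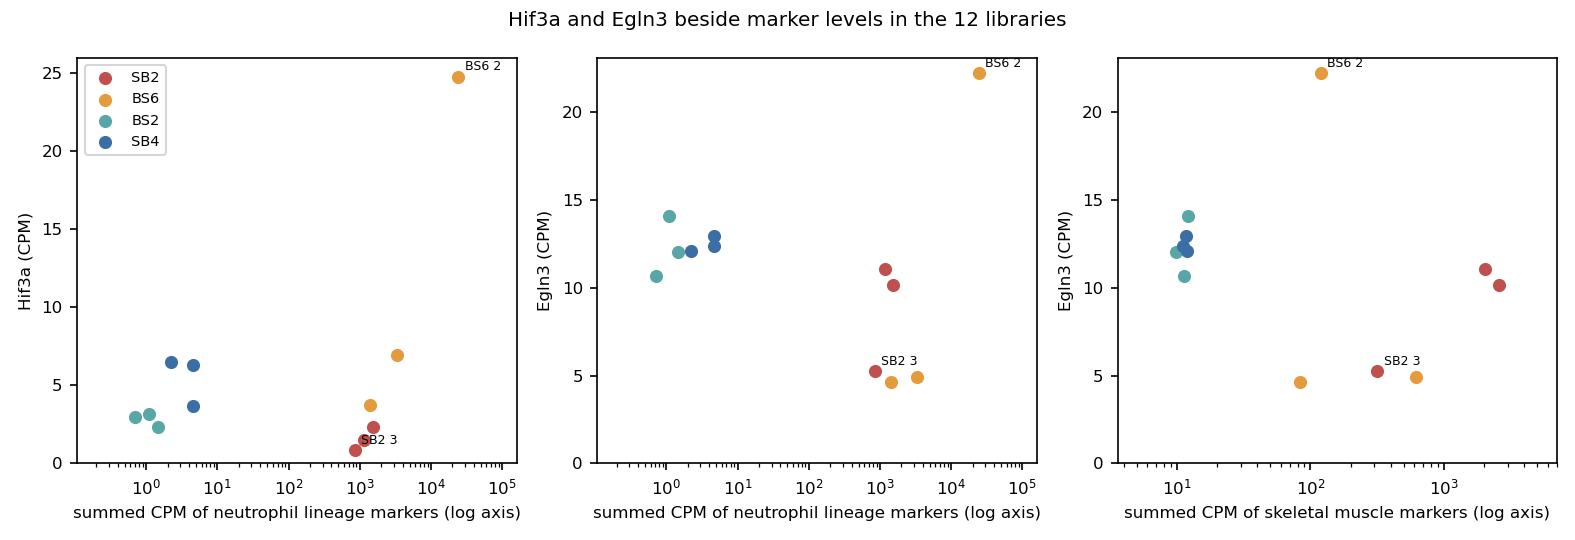
Level of Hif3a (left) and Egln3 (middle, right) in CPM (y axis, linear) against the summed CPM of neutrophil lineage or skeletal muscle markers (x axis, log scale), 1 point per library, coloured by group. BS6 replicate 2 has the highest neutrophil sum, 24340 CPM, and the highest level of both genes, 24.8 CPM of Hif3a and 22.2 CPM of Egln3.

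The target genes differed in direction between the tissue transcripts, and their promoters are shown because HIF binds short motifs in such regions and Egln3 is a target as well. The sequences are those RefSeq gives for the mouse assembly GRCm38.p6 from 250 bases before to 50 bases after the start of transcription, written from 5′ to 3′ on the strand of the gene. Capitals mark the core letters of the hypoxia response element, ACGTG or GCGTG, on either strand, where CACGT and CACGC are the same letters read on the opposite strand. The promoter sequence of Bnip3 lies at chr7:138909457-138909756 (minus strand), that of Adm at chr7:110627407-110627706 (plus), that of Car9 at chr4:43506776-43507075 (plus) and that of Egln3 at chr12:54203825-54204124 (minus).
Bnip3: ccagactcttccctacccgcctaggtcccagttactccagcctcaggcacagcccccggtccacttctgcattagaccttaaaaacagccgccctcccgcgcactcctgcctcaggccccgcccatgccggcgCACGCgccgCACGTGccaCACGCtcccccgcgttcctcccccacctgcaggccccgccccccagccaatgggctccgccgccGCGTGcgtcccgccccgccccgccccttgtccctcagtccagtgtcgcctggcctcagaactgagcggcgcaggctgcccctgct
Adm: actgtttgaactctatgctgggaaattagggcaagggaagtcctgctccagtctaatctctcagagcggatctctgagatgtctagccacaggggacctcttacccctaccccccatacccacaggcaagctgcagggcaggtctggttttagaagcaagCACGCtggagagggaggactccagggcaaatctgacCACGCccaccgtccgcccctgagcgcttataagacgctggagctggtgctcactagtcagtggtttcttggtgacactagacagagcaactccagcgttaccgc
Car9: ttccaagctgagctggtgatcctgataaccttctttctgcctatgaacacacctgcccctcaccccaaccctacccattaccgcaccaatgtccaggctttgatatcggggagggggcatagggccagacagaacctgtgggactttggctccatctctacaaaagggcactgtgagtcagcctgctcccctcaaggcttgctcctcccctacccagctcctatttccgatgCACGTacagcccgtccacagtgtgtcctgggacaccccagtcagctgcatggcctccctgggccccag
Egln3: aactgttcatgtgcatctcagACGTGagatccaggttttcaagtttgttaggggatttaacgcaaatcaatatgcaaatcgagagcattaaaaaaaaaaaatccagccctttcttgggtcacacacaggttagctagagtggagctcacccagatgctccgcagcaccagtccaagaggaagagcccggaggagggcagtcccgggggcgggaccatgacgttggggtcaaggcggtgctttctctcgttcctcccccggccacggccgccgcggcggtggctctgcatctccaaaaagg

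Of 32851 promoters of the same length, 43.8% held at least 1 such match, 20.6% at least 2, 8.93% at least 3 and 3.86% at least 4. Bnip3 held 5 matches, of which 2 are the opposite strands of the palindrome CACGTG, an E-box that also holds the letters ACGTG and was found in 7.15% of all promoters. Adm held 2 matches, at 90 and 54 bases before the start (-90 and -54), and Car9 held 1 at position -18. Egln3 held 1 at position -229. Of the other genes, Hif1a held 3 matches, Hif3a and Egln1 2 each, Arnt 1, and the first and second promoter of Egln2 6 and 1. Promoters of 9 of the 10 genes were matched by symbol, all except Epas1. Match counts describe letters only, and absence of a match says nothing about binding elsewhere.

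Bnip3, whose product sits on the outer mitochondrial membrane and takes part in mitophagy, was the target that was higher with brain transcripts. Bnip3 (chr7:138890836-138909519, minus strand) was at 44.4, 44.6 and 48.0 CPM in BS2 and 42.8, 50.9 and 45.0 CPM in SB4. In SB2 it was at 13.2, 14.5 and 9.89 CPM and in BS6 at 10.3, 13.1 and 11.3 CPM. The lowest brain-transcript library was above the highest bone-transcript library, and groups with the same tissue transcripts overlapped. Bnip3 rose in SB4 against SB2 by 1.89 ± 0.133 on the log2 scale (edgeR adjusted p = 1.1e-07) and fell in BS6 against BS2 by 1.94 (SE 0.132, adjusted p = 3.13e-05). BS2 and SB4 differed by 0.00 on that scale (95% interval -0.159 to 0.151) and BS6 and SB2 by -0.09 (-0.557 to 0.367). Both calls held without each library in turn. The antisense gene Gm45507 shares exonic bases with Bnip3 on the opposite strand and was not analysed here.

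Adm, which encodes the vessel-dilating peptide adrenomedullin, had its highest mean in SB2. Adm (chr7:110627661-110629820, plus strand) was at 9.46, 7.26 and 7.75 CPM in SB2 and 2.35, 7.79 and 5.15 CPM in BS6. In SB4 it was at 2.91, 2.94 and 2.73 CPM and in BS2 at 0.826, 1.54 and 0.944 CPM. SB2 overlapped BS6 through BS6 replicate 2, BS6 overlapped SB4 through BS6 replicate 1, and BS2 lay below all other groups. Adm fell in SB4 against SB2 by 1.51 on the log2 scale (SE 0.184, edgeR adjusted p = 1.35e-05) and rose in BS6 against BS2 by 2.24 ± 0.51 (adjusted p = 0.00658). Adm was also the member called between the brain-transcript groups, lower in BS2 than in SB4 by a log2 fold change of -1.35 ± 0.287 (edgeR adjusted p = 0.0237), with 13 to 24 counts per BS2 library and 41 to 54 per SB4 library. That call was lost without SB4 replicate 1 (adjusted p = 0.0731), BS2 replicate 1 (0.0912) or BS2 replicate 3 (0.126) and in a fit over all 12 libraries (0.866). BS6 against SB2 gave -0.66 ± 0.418 without passing (edgeR adjusted p = 0.338). BS6 against SB4 gave 0.88 (adjusted p = 0.105), and 1.22 with adjusted p = 0.00705 without BS6 replicate 1. Within BS6 the order of the Adm levels was that of the neutrophil lineage sums, but within SB2 it was not. In SB2, replicate 2 had the lowest Adm level beside the highest neutrophil lineage sum. That sum was 1516 CPM, against 1161 CPM in replicate 1 and 847.8 CPM in replicate 3. The part of these cells in the Adm level was not tested. The endothelium sums given above were higher in both bone-transcript groups as well.

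Car9, which encodes a carbonic anhydrase of the cell surface that acidifies the outside of hypoxic cells, was near the counting limit with brain transcripts. Car9 (chr4:43506966-43513729, plus strand) was counted 46, 32 and 26 times in SB2 and 48, 37 and 33 times in BS6, against 2, 2 and 4 times in SB4 and 2, 2 and 0 times in BS2. In CPM these were 1.59 to 2.62 in SB2, 2.1 to 3.13 in BS6, 0.109 to 0.223 in SB4 and 0 to 0.128 in BS2. Bone-transcript and brain-transcript groups did not overlap, and groups with the same transcripts did. Scaled to library size, the summed counts were 13.4-fold higher in SB2 than in SB4 (95% exact counting interval 6.55 to 31.9) and 28.7-fold higher in BS6 than in BS2 (10.9 to 107). These intervals cover counting error only, and neither the spread between animals nor PCR duplicates. BS6 against SB2 gave a ratio of 1.17 (0.889 to 1.53). edgeR called Car9 in SB4 against SB2 (log2 fold change -3.67 ± 0.427, adjusted p = 8.99e-06) and in BS6 against BS2 (4.77 ± 0.551, adjusted p = 0.000294), fitted values that depend on the prior count where counts are this low. Between BS2 and SB4 Car9 had too few counts to be tested. The antisense gene Gm12454 shares 214 exonic bases with Car9 and had 3 to 18 counts in the bone-transcript libraries and 0 to 1 in the others, and without the strand setting of the counting, reads of the pair cannot be told apart.

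Most of these calls stood where most genes differed. In SB4 against SB2, 2 of the 10 genes were called higher and 3 lower, where 56.4% of 17293 genes tested were called, 27.8% higher and 28.6% lower. In BS6 against BS2, 4 were higher and 1 lower, with 55.5% of 17311 genes called, 29% higher and 26.5% lower. In BS2 against SB2, 1 was higher and 2 were lower, with 56.2% of all genes called (27.6% higher, 28.6% lower). In BS6 against SB4, 2 were higher and 1 was lower, with 55.4% called (28.8% higher, 26.5% lower). In this last comparison, which uses no group at odds with its label, Epas1 (log2 fold change 1.16, edgeR adjusted p = 8.83e-05) and Car9 (3.95, adjusted p = 0.000135) were higher in BS6 and Bnip3 was lower (-1.96, adjusted p = 3.86e-05). Hif1a (0.51, adjusted p = 0.0281), Arnt (0.55, adjusted p = 0.00241) and Egln2 (0.29, adjusted p = 0.021) were higher in BS6 under the fold threshold. Hif3a was at 1.15 without passing (adjusted p = 0.182) and at -0.02 without BS6 replicate 2 (adjusted p = 0.964). The shares of 3 to 5 in 10 members called were no larger than the background.

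With the same tissue transcripts, 0 of 10 genes were called in BS6 against SB2 by edgeR, where 1.86% of 16329 genes were called, 1.11% higher and 0.741% lower. Of the members, 3 had an unadjusted p under 0.05 there, and DESeq2 called 1, Hif3a (2.94, adjusted p = 0.000768). In BS2 against SB4, 1 of 9 tested genes was called, Adm, where 0.147% of 16278 genes were called, 0.0614% higher and 0.086% lower. With a library left out, the number of all genes called ran from 0 to 667 in BS6 against SB2. In BS2 against SB4 that number ran from 18 to 85. The libraries of the groups did not overlap for 9 of 10 genes in SB4 against SB2 and 8 of 10 in BS6 against BS2, as for 85.5% and 80.8% of all genes. They did not overlap for 5 of 10 genes in BS6 against SB2 and 3 of 9 in BS2 against SB4, where 38.1% and 16.5% of all genes did not. The median log2 fold change of the members was -0.47 in SB4 against SB2 and 0.45 in BS6 against BS2, against -0.01 and 0.02 over all genes tested, and -0.06 and -0.01 in BS6 against SB2 and BS2 against SB4, against 0.02 and 0.00. These comparisons share libraries and are not independent of each other.

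**Figure D4:**
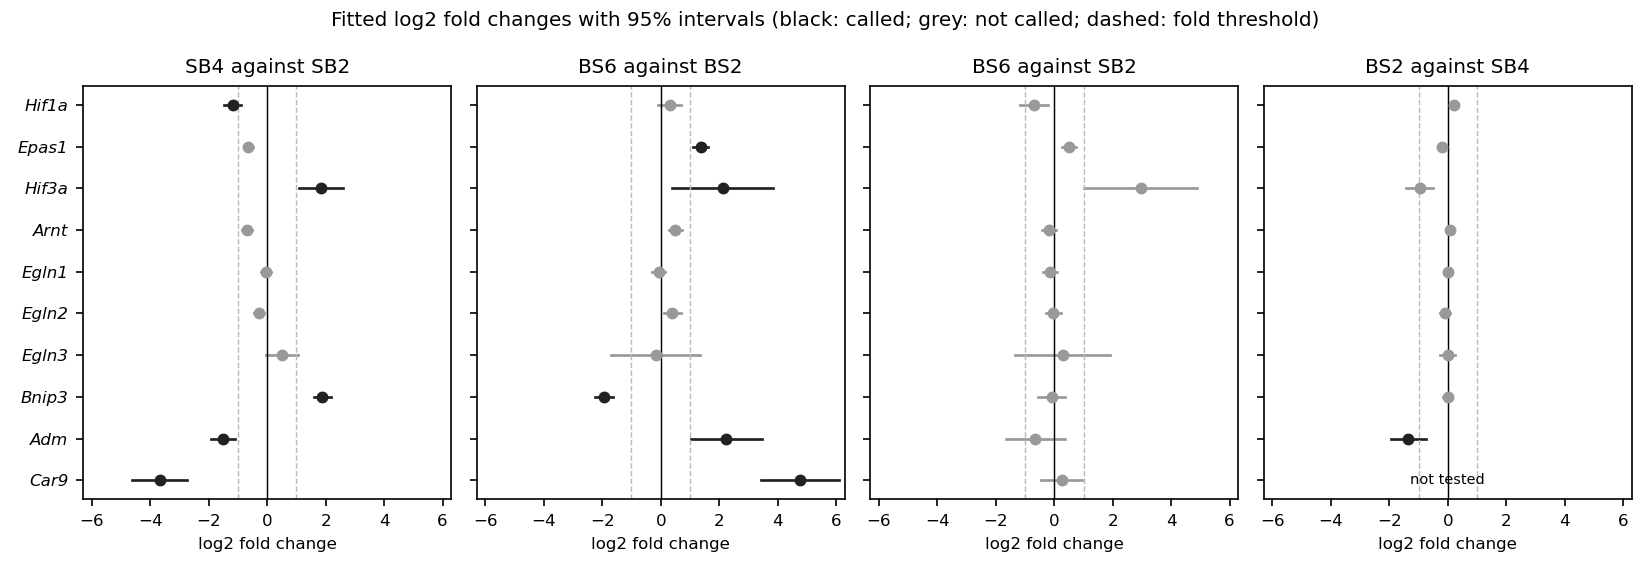
Fitted log2 fold changes (x axis) of the 10 genes (y axis) in 4 comparisons from edgeR, with 95% intervals as lines, called genes in black and dashed lines at the fold threshold. In SB4 against SB2 and BS6 against BS2 Bnip3, Adm and Car9 are called in opposite directions (Bnip3 1.89 and -1.94), while Adm is the single black point between BS2 and SB4 and no gene is black in BS6 against SB2.

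A pair of contrasts was fitted over all 12 libraries. The first, the change from SB2 to SB4 minus that from BS2 to BS6, is also the brain-transcript groups against the bone-transcript groups, and 7 of the 10 genes passed an adjusted p of 0.05 in edgeR, where 84.9% of 18068 genes did. The second, the mean of both changes, sets the later against the earlier groups with each kind of tissue transcripts and each labelled injured site once on either side. If tissue is read from the transcripts and the injured site from the labels, both earlier groups are the lit tissue and both later groups the tissue that was not lit, so that day and lit tissue cannot be told apart in this contrast. In it Epas1 was higher in the later groups by 0.36 ± 0.0578 on the log2 scale (edgeR adjusted p = 0.00815), Hif3a was higher by 1.97 ± 0.448 (0.0256) and Hif1a was lower (-0.44 ± 0.112, adjusted p = 0.0359), and 8.58% of all genes passed. The number of all genes that passed ran from 592 to 3059 when a library was left out. The Epas1 result passed without each library in turn (adjusted p 0.00139 to 0.0304). Hif1a exceeded 0.05 without SB2 replicate 1 or 3 or any library of SB4 or BS2 (0.0685 to 0.0865 in those fits), and Hif3a without the same libraries except SB4 replicate 1 (0.0583 to 0.067), and was 1.39 (adjusted p = 0.00288) without BS6 replicate 2. Arnt, the Egln genes, Bnip3, Adm and Car9 did not pass, with Bnip3 at -0.03 (95% interval -0.251 to 0.187).

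The other genes of the pathway were taken from lists chosen by function. Of 12 other HIF regulators, 2 rose in SB4 against SB2 (27.8% of all genes), P4htm, a transmembrane prolyl hydroxylase, by 2.23 and Eloc, elongin C of the von Hippel-Lindau complex, by 1.40 on the log2 scale (edgeR adjusted p = 3.31e-09 and 3.26e-09). In BS6 against BS2, P4htm (-1.99), Eloc (-1.82) and Cul2, the cullin of that complex (-1.30), fell, as 26.5% of all genes did. Cited2, which competes with HIF for the coactivator p300, was called higher there by 1.32 (adjusted p = 0.00427; 29% of all genes were called higher), but not without BS6 replicate 2, when it was at 1.00 (adjusted p = 0.000145), just under the fold threshold. The median of this list was 0.34 in SB4 against SB2 and -0.34 in BS6 against BS2.

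Of 10 other tested bHLH-PAS genes, the family of the HIF subunits, 8 rose in SB4 against SB2 (27.8% of all genes) and 8 fell in BS6 against BS2 (26.5%). The largest change was that of Arnt2, the neuronal relative of Arnt, from 22.9 ± 4.20 CPM in SB2 to 676 ± 50.9 CPM in SB4 (log2 fold change 4.89, edgeR adjusted p = 1.69e-10) and from 697 ± 7.45 CPM in BS2 to 17.3 ± 4.54 CPM in BS6 (-5.30, adjusted p = 7.24e-06). Arnt, by contrast, was lower with brain transcripts. Npas1 (3.95), Npas3 (3.49) and Npas4 (3.22), transcription factors of neurons, rose in SB4 against SB2 as well. Their changes in BS6 against BS2 were -3.87, -3.18 and -3.57.

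The 37 other HIF targets tested did not share a direction. In SB4 against SB2, 9 rose and 17 fell (27.8% and 28.6% of all genes), and in BS6 against BS2, 16 rose and 6 fell (29% and 26.5%), or 15 and 9 without BS6 replicate 2. The medians were -0.20 and 0.06, against -0.01 and 0.02 over all genes. Large differences were those of Lox, Angptl4 and Hmox1, all called in both comparisons and higher with bone transcripts. Lox, which cross-links collagen, was at 1006 ± 179 CPM in SB2, 547 ± 251 in BS6, 0.844 ± 0.618 in SB4 and 1.07 ± 0.502 in BS2. Angptl4 gave log2 fold changes of -5.90 and 6.54 in the 2 comparisons, and Hmox1, heme oxygenase 1, gave -5.86 and 4.59. Genes that went the other way, named after their values were seen, included Ak4 (2.77 and -3.47, called in both). Slc2a3 rose by 2.38 in SB4 against SB2 but did not pass in BS6 against BS2 (-0.48, edgeR adjusted p = 0.576). Between the bone-transcript groups 2 of the 37 genes were called higher in BS6 than in SB2 and 0 lower (1.11% and 0.741% of all genes). These were Mxi1 and Ccng2, both linked to arrest of growth. Mxi1 was at 71.3 ± 22.4 against 31.3 ± 3.19 CPM (1.21, edgeR adjusted p = 0.0418). Ccng2 was at 45.9 ± 7.50 against 23.1 ± 1.13 CPM (1.01, adjusted p = 0.0311). Without BS6 replicate 2 neither reached the fold threshold (0.92 and 0.87, adjusted p = 0.00245 and 0.00199). Both calls were also lost without SB2 replicate 1, 2 or 3 and with the replicate block, fits in which 0 of all genes were called. Between BS2 and SB4 the smallest edgeR adjusted p among the 37 genes was 0.0596, that of P4ha1, a collagen prolyl hydroxylase named after its value was seen.

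The relatives of the 3 targets were listed in the same way. Of 7 tested genes of the adrenomedullin family and its receptors, 5 fell and 2 rose in SB4 against SB2 (28.6% and 27.8% of all genes). Those that fell included Calcrl, the receptor (-2.77), its partner Ramp2 (-2.31), Gpr182 (-3.31), and Ackr3 (-2.47), which takes up the peptide. The 2 that rose, named after their values were seen, were Ramp3 (1.47) and Ramp1 (1.06), which also partner receptors of this family. In BS6 against BS2, 5 rose and 1 fell, Ramp3 (-1.27), where 29% and 26.5% of all genes did, with Gpr182 at 3.75, Ramp2 at 2.72, Calcrl at 2.18 and Ackr3 at 1.80. The summed endothelium markers were higher with bone transcripts as well, and their part was not tested. Of 12 other carbonic anhydrases, 8 rose and 3 fell in SB4 against SB2 (27.8% and 28.6% of all genes) and 2 rose and 5 fell in BS6 against BS2 (29% and 26.5%), or 2 and 6 without BS6 replicate 2. Car10 was at 213 ± 15 CPM in SB4 against 0.459 ± 0.338 CPM in SB2 and Car4 at 49.8 ± 7.85 against 0.999 ± 0.0832 CPM, whereas Car3, an enzyme of muscle and fat, was at 0.24 ± 0.251 against 89.2 ± 6.91 CPM and Car13 at 1.43 ± 0.449 against 41.8 ± 4.33 CPM. Of 11 relatives of Bnip3 and mitophagy genes, 2 rose and 1 fell in SB4 against SB2 (27.8% and 28.6% of all genes), Park2 (2.63) and its kinase partner Pink1 (1.88) rising and Bnip2 falling (-1.66), and the same 3 genes were called in the opposite direction in BS6 against BS2 (-1.86, -1.20 and 1.69), where 55.5% of all genes were called.

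**Figure D5:**
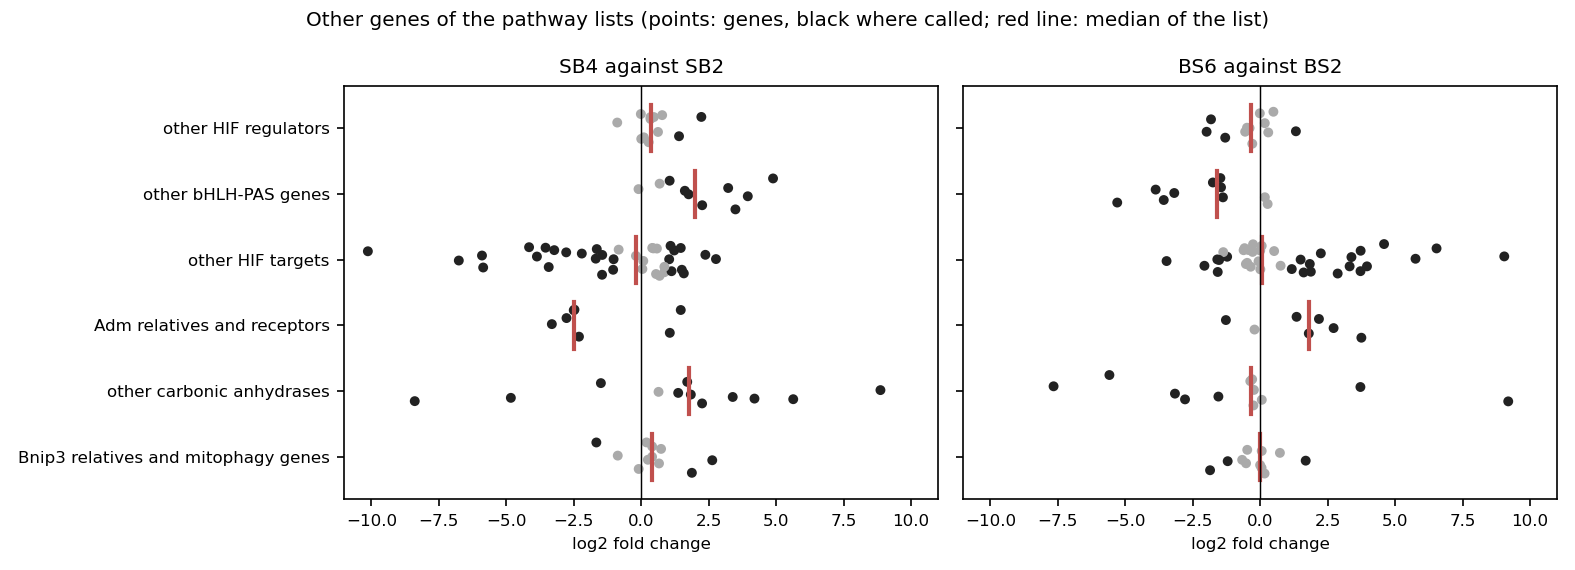
Fitted log2 fold changes (x axis) of the other genes of 6 pathway lists (y axis), 1 point per gene tested, black where called, with the list's median as a red line; vertical scatter within a list carries no value. The bHLH-PAS genes have a median of 2.01 in SB4 against SB2 (left) and -1.61 in BS6 against BS2 (right), while the HIF targets spread to both sides of 0 in each.

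The gene whose log2 CPM correlated most with each member over the 12 libraries was sought among all others whose mean level reached 10 CPM. Pearson's r, given as a description over libraries that share tissue transcripts and depth, was 0.999 between Bnip3 and Extl1, 0.994 between Epas1 and Top3b and between Car9 and Lfng, 0.993 between Arnt and Txndc12 and 0.982 between Hif1a and Scfd1. It was 0.975 between Egln2 and Zbtb48, 0.953 between Adm and Herpud1, 0.948 between Egln3 and Lrrfip1, 0.933 between Hif3a and mt-Tp and 0.907 between Egln1 and Actn2. For Bnip3, 2699 genes of 11372 had an r over 0.95, for Car9 1632 and for Arnt 1005, against 0 for Hif3a, Egln1 and Egln3. Egln1 had a nearly flat level, and Hif3a and Egln3 spread widely in BS6. Whether that limited the r they reached was not tested. The numbers of genes over 0.95 do not show how many genes share a pattern.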

How the data were processed

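RNA-seq of poly(A) mRNA from 12 mouse libraries was analysed. The authors cleaned the paired reads with fastp, mapped them to mm10 with HISAT2 2.1.0 (per the submitters' processing notes) and deposited raw counts per gene symbol, without normalization. The counting program, its annotation and its strand setting are not given in the sources used here, nor whether the counts precede the ComBat_seq correction, so overlapping genes are uncertain. No column of another sample was used. Groups and replicate numbers come from the sample titles.

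Counts were tested with edgeR (4.0.16, R 4.3.3). Genes were kept by filterByExpr, whose minimum count was left at 10, libraries were scaled by TMM, and robust quasi-likelihood fits took 2 groups at a time, with Benjamini-Hochberg adjustment over the genes tested. A call required both thresholds that the study also used, 0.05 for the adjusted p and 1 for the size of the log2 fold change. The contrasts between changes used all 12 libraries. The script recovered known changes on simulated data, in which few genes changed and all genes had the same spread. In the data most genes differed in several comparisons and replicates spread unequally, which that check did not cover. Levels are CPM with TMM factors over 12 libraries, divided by GENCODE M21 exon length where genes were compared. The members and lists were chosen with earlier results of these data known. All 10 members are named throughout. At most 4 called genes of each list were named by rule in a comparison. They had the largest absolute change and at least 10 CPM in the higher group. Ramp1, Ramp3, P4ha1, Ak4, Slc2a3 and the genes under Other observations were named outside this rule. A gene that this rule names is not reported here. Replicates differed beyond sampling noise, so none was counted as a duplicate. Alternatives were DESeq2 1.42.0, other scalings and filters, a fit over 12 libraries, a replicate block and leaving out each library. The list counts without BS6 replicate 2 were chosen after seeing the data.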

Additional observations from a re-analysis of the deposited data

Results flagged for a closer look

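In 7 of the 10 genes the change from the earlier to the later day differed between the groups labelled SB and those labelled BS, by edgeR's quasi-likelihood test of the difference itself over 12 libraries. The change in SB minus that in BS, on the log2 scale, was 3.82 for Bnip3 (adjusted p = 6.71e-09). It was negative for the other 6 genes, at -8.46 for Car9 (adjusted p = 2.42e-07), -3.77 for Adm (4.28e-05), -2.03 for Epas1 (1.28e-08), -1.496 for Hif1a (6.15e-05), -1.21 for Arnt (1.11e-06) and -0.70 for Egln2 (0.000498). The value for Car9 rests on 12 counts in the 6 brain-transcript libraries and depends on the prior count. As SB2 and BS6 held bone transcripts and SB4 and BS2 brain transcripts, the same contrast compares these transcripts, with an earlier and a later group on each side, and a change with day that differs between the labelled sites cannot be told apart from them. Of all genes tested, 84.9% passed. Egln1 was at 0.01 (95% interval -0.229 to 0.245), Hif3a at -0.29 and Egln3 at 0.66 (edgeR adjusted p = 0.422), and without BS6 replicate 2 Egln3 passed the test (1.82, adjusted p = 0.00019), while Hif3a changed sign without passing (0.87, adjusted p = 0.12).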

How the results depend on the processing

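Of 1200 recomputed log2 fold changes of the 10 genes, 1132 kept their direction and side of the threshold, 23 lost and 12 gained the threshold, and 33 changed sign. Those that changed sign are listed here, most of them close to 0, and the cause was not tested. With upper-quartile factors Egln1 was at 0.0124 in BS6 against BS2 and 0.00803 in BS6 against SB4, and the difference between the early-to-late changes of Egln1 was -0.163 with these factors and -0.0584 with total counts only. In a fit over all 12 libraries Egln2 was at 0.00038 in BS6 against SB2 and Bnip3 at 0.00164 in BS2 against SB4. Leaving out each library in turn, Egln1 ran from -0.0833 to 0.00543 in SB4 against SB2, from -0.094 to 0.000653 in BS6 against BS2, from -0.0372 to 0.0208 in BS2 against SB4 and from -0.0343 to 0.104 in the difference between changes. Egln3 ran from -1.32 to 0.198 in BS6 against BS2, from -0.88 to 0.645 in BS6 against SB2, from -0.116 to 0.0815 in BS2 against SB4, from -1.35 to 0.168 in BS6 against SB4 and from -0.421 to 0.326 in the mean early-to-late change. Egln2 ran from -0.0833 to 0.034 in BS6 against SB2. Bnip3 ran from -0.241 to 0.0186 in BS6 against SB2, from -0.0447 to 0.0626 in BS2 against SB4 and from -0.106 to 0.0234 in the mean change, and Hif3a from -0.0179 to 1.57 in BS6 against SB4 and from -0.656 to 0.874 in the difference between changes.

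Without the fold threshold the members called were 8 in SB4 against SB2 (14400 of 17293 genes overall), 7 in BS6 against BS2 (12981 of 17311), 8 in BS2 against SB2 (14317 of 17252), 6 in BS6 against SB4 (12999 of 17298), 1 in BS6 against SB2 (932 of 16329) and 2 in BS2 against SB4 (153 of 16278). In BS6 against SB2, DESeq2 and the fit over all 12 libraries each called 1, and leaving out a library gave 0 to 1. In BS2 against SB4 the fit over all 12 libraries called 0 and leaving out a library gave 0 to 1. Leaving out a library gave 3 to 5 members in BS2 against SB2, where 9752 to 9993 of all genes were called. In the mean early-to-late change it gave 1 to 3 members, where 592 to 3059 of all genes passed. Among all genes called, BS6 against SB2 had 303 (182 higher, 121 lower), 1058 by DESeq2, 1273 over 12 libraries, 932 without the fold threshold, 125 higher and 163 lower by total counts, and 0 to 667 leaving out a library, where it was 0 without SB2 replicate 1, 2 or 3 and 667 without BS6 replicate 2. BS2 against SB4 had 24, against 49 by DESeq2, 50 without a filter, 8 over 12 libraries, 153 without the fold threshold and 18 to 85 leaving out a library (85 without SB4 replicate 3, 41 without SB4 replicate 2, 59 without BS2 replicate 1). The mean change had 1551 (765 higher, 786 lower), against 2881 by DESeq2, 460 higher and 1132 lower by total counts, and 592 to 3059 leaving out a library (3059 without BS6 replicate 2). Without BS6 replicate 2, an alternative chosen after seeing the data, 0 of the other HIF targets and 2 carbonic anhydrases were called in BS6 against SB2, against 2 and 0 with it. Scaling by upper quartiles moved the median of all genes by -0.13 in SB4 against SB2 and -0.117 in BS2 against SB2.

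Replicate numbers are shared by the groups, but deviations of libraries with one number correlated by only -0.116 to 0.0859, so the numbers were not taken to pair samples. With the replicate block Egln3 in SB4 against SB2 passed an adjusted p of 0.05 (0.554, edgeR adjusted p = 0.0297), and Epas1 in BS6 against SB2 and Egln2 in BS6 against SB4 no longer did (0.125 and 0.0676). With it Egln3 was at -0.0406 in BS6 against SB2 and the difference between the changes of Hif3a was 0.0778. The block left every count of members called within 1.5 times, but gave 0 genes called in BS6 against SB2 and 61 in BS2 against SB4.

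Counts were low for Car9 (0 to 4 per brain-transcript library), Adm (13 to 24 per BS2 library) and Hif3a (14 to 35 per SB2 library), which limits their precision.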

Other observations

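Vegfa, which encodes the vessel growth factor, and a few other HIF targets were looked up after the values of their list had been seen. Vegfa was at 113 ± 19.5 CPM in SB2, 116 ± 17.5 CPM in SB4, 97.3 ± 1.63 CPM in BS2 and 78.1 ± 10.8 CPM in BS6 (SD, n = 3), and its log2 fold changes of 0.04 in SB4 against SB2 and -0.28 in BS6 against BS2 did not pass (edgeR adjusted p = 0.805 and 0.0675), whereas Vegfa was lower in BS6 than in SB4 (-0.54, adjusted p = 0.021), under the fold threshold. Ndrg1 and Ddit4, both stress-induced genes, were higher with bone transcripts. Ndrg1 was at 68.7 ± 7.29 CPM in SB2 and 97.0 ± 17.6 CPM in BS6 against 21.96 ± 5.17 CPM in SB4 and 21.0 ± 3.72 CPM in BS2, and Ddit4 at 50.2 ± 9.88 and 62.9 ± 6.40 CPM against 18.3 ± 1.32 and 18.1 ± 2.47 CPM. Bnip3l, the closest relative of Bnip3 in the lists, did not follow it in BS6, with 162 ± 20.8 CPM there, 149 ± 2.83 CPM in BS2, 144 ± 5.73 CPM in SB4 and 91.3 ± 5.41 CPM in SB2. Bnip3l was higher in SB4 than in SB2 by 0.66 on the log2 scale, under the fold threshold (edgeR adjusted p = 2.9e-06), and BS6 against BS2 gave 0.16 (adjusted p = 0.258).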
